A study of Leucoraja erinaceus with 6 samples.

Results

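The HoxB genes and the Hox partner Meis were followed in spinal cord cells of little skate (Leucoraja erinaceus) embryos. The rows were chosen by their descriptions in the authors' deposited table, which had to begin with homeobox B and a digit or with Meis homeobox. After 1 exact repeat in the table was removed, 6 of 7080 rows met this rule, of which 5 were HoxB rows (HOXB3, HOXB4, HOXB5, HOXB6 and HOXB7) and 1 was a Meis row (described as Meis homeobox 1 b, here MEIS1). A symbol names the protein that a contig matched and is not a verified skate ortholog, and the letters at the end of the fish protein names were dropped.

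The libraries fell into 2 groups, pectoral fin motor neurons (replicates 1, 2 and 3) and tail spinal cord cells (replicates 1, 2 and 4). Both came from the spinal cord of wild type embryos at stages 30 to 31 and were sorted by hand. The sources used here do not say how the sorted cells were marked, how many cells made a library or whether each library was a different embryo. The p-values therefore set the difference between the groups against the variation among libraries of a group, and that variation may be technical. By their labels the groups differ in cell class and in body level together, and these 2 differences cannot be told apart.

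Hox genes encode homeodomain transcription factors that give cells their position along the body axis. In vertebrates, genes at the low-numbered end of a Hox cluster are expressed from more rostral limits than those at the high-numbered end, and in mouse and chick the Hox code of the spinal cord assigns motor neurons to limb or trunk levels. Meis proteins belong to the TALE homeodomain class and bind DNA together with Hox and Pbx proteins. In the skate assembly Leri_hhj_1, RefSeq names hoxb7a, hoxb6a, hoxb5a, hoxb4a and hoxb3a as neighbours in this order, with no other protein-coding gene between them. Beyond hoxb7a it names hoxb8a, hoxb9a and hoxb10a, and none of these had a described row here. For the gene names, 5 of the 6 rows had a match in the RefSeq gene table. The Meis row was sought only as meis1b, which had no match, so a Meis gene under another name would have been missed. Genome coordinates were used only for this order of genes. The deposited rows were not placed on the genome, because the deposited table names no build.

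Values are TPM, a transcript abundance relative to the library total. They are corrected for transcript length, so rows of 1 library can be compared. Depth per library is unknown. Of the 7080 rows, pectoral replicate 1 had 5 listed at 0, tail replicate 4 had 3552 and the other libraries had 1051 to 2169. A row at 0 is therefore given as listed at 0 and not as absent. Of 8 motor neuron markers 4 had a row, with sums of 7.99 to 11.6 TPM across the pectoral and 2.91 to 5.96 TPM across the tail libraries. ISL1 and ISL2, LIM homeodomain factors of motor neurons, lay higher in every pectoral library than in any tail library, and ISL2 was listed at 0 in tail replicates 2 and 4. Of all tested rows 4.18% had groups that did not overlap with pectoral higher. ISL1 reached 1 TPM in the pectoral libraries alone, and ISL2 was not a tested row. CHAT and SLC18A3, of acetylcholine synthesis and its loading into vesicles, had overlapping groups, and CHAT was listed at 0 in pectoral replicate 3. Of 9 progenitor and radial glial markers 5 had a row, with sums of 73.7 to 116 TPM across the pectoral and 22.7 to 55.2 TPM across the tail libraries. In the pectoral libraries the sums were carried by ID4 and FABP7. Their tested rows had log2 fold changes (pectoral minus tail) of 2.86 and 1.23. In tail replicate 1 SOX2 stood at 13.98 TPM beside ID4 at 14.4 TPM. In tail replicate 2 SOX9 stood at 19.4 TPM beside ID4 at 22.4 TPM, and in tail replicate 4 FABP7 held 20.97 TPM. ID4 too lay higher in every pectoral library than in any tail library, as did another, untested FABP7 row. The tested rows of SOX2, SOX9 and PAX6 had negative fold changes of -1.41, -1.68 and -0.64. The 5 tested rows of this list had a median of -0.64. COL2A1, a cartilage collagen and the 1 connective tissue marker of 7 with a row, stood at 2.22, 69.03 and 4.49 TPM across pectoral replicates 1, 2 and 3 and at 4.91, 0.109 and 0 TPM across tail replicates 1, 2 and 4. No described row named the listed markers of the oligodendrocyte lineage, muscle, blood and vessel, or neural crest and sensory neurons. Most rows carried no description, so these markers are not shown to be absent. The part of other cell types in the HoxB and Meis values was not tested.

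The make-up of HoxB transcripts was unlike in the 2 groups. HOXB3, the lowest-numbered row, made up 10.1%, 40.9% and 5.10% of the summed HoxB TPM across pectoral replicates 1, 2 and 3. Its share was larger in the tail group, where replicates 1, 2 and 4 had 52.01%, 87.65% and 91.9%. The mean was 18.7% ± 19.4 in pectoral and 77.2% ± 21.9 in tail libraries (SD, n = 3 each), and the groups did not overlap. The libraries were not resolved into single cells, so fewer cells of a type and less RNA per cell cannot be told apart.

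HOXB6 and HOXB7, the highest-numbered of the HoxB rows present, together made up 72.4%, 37.2% and 77.2% of the HoxB sum in pectoral replicates 1, 2 and 3. The corresponding share was 5.80%, 6.80% and 0.261% in tail replicates 1, 2 and 4. Every pectoral library thus had a larger HOXB6 and HOXB7 share than any tail library. The shares are parts of 1 sum, so a larger HOXB3 share by itself makes the other shares smaller. A share of this kind is a ratio within a library and does not depend on how libraries are scaled against each other. It is a description here with no test, because the rows were chosen with results of these data known.

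The order of levels within a library also differed between the groups. This order and the ratio below come from the same TPM values as the shares and are not separate support. In pectoral replicates 1 and 3 the highest HoxB row was HOXB6, followed by HOXB7 and HOXB5. For pectoral replicate 1 this order depended on how HOXB4 was counted, as given below. In pectoral replicate 2 the highest row was HOXB3, followed by HOXB7 and HOXB5. HOXB3 was the highest HoxB row in all 3 tail libraries and HOXB7 the lowest. The summed TPM of HOXB6 and HOXB7 was 7.20, 0.909 and 15.1 times that of HOXB3 in pectoral replicates 1, 2 and 3, and 0.111, 0.0776 and 0.00284 times that of HOXB3 in tail replicates 1, 2 and 4. Pectoral replicate 2 lay between the other pectoral libraries and the tail libraries in this ratio. It was also the library with the highest COL2A1 value, and the part of that in the ratio was not tested.

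The paralog number of the 5 HoxB rows, averaged with TPM as weights, was 5.69, 4.76 and 5.86 in pectoral and 4.003, 3.31 and 3.13 in tail libraries. With no HoxB row numbered above HOXB7, this average cannot show higher-numbered HoxB genes in either group. The HoxB sum itself was 15.1, 25.5 and 19.1 TPM across the pectoral and 75.6, 15.6 and 40.8 TPM across the tail libraries. The groups overlapped in the sum, while they did not overlap in the weighted paralog number. That number comes from the same TPM values as the shares and is not a separate result.

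**Figure D1:**
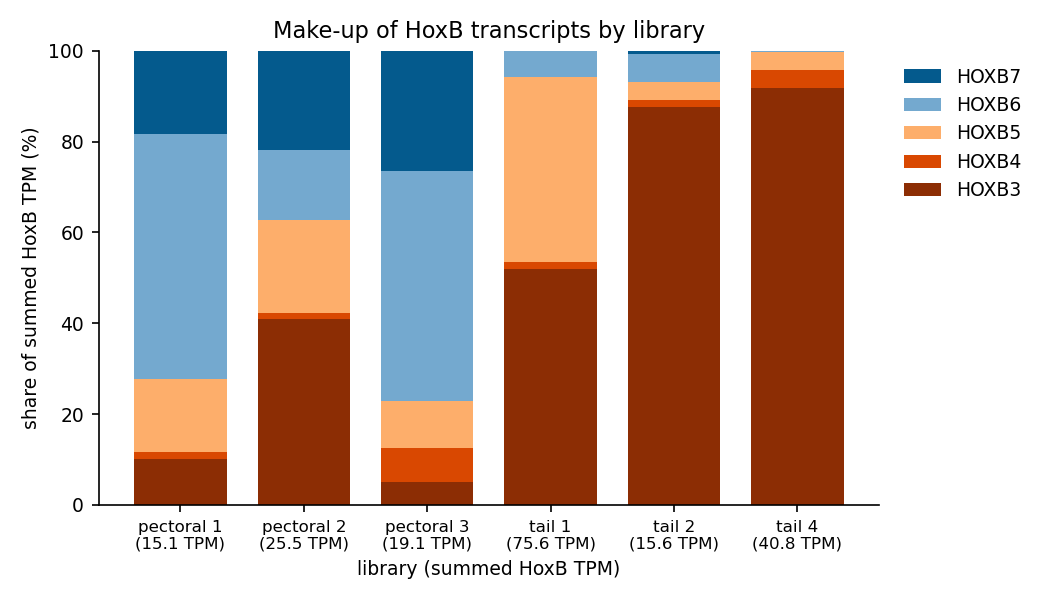
Share of each HoxB row in the summed TPM of the 5 HoxB rows of a library, in percent, with 1 bar for each library and the sum in TPM under it. HOXB6 and HOXB7 (blue) fill 37.2% to 77.2% of the pectoral bars and 0.261% to 6.80% of the tail bars, and HOXB3 (dark brown) fills 52.01% to 91.9% of the tail bars.

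HOXB3, a gene of the hindbrain and rostral spinal cord in mouse, stood at 1.52, 10.4 and 0.975 TPM across pectoral replicates 1, 2 and 3 and at 39.3, 13.65 and 37.5 TPM across tail replicates 1, 2 and 4. The tail libraries were all higher than the pectoral libraries, and the gap was narrow between pectoral replicate 2 and tail replicate 2. The ratio of the mean TPM was 7.01 in favour of tail. HOXB3 was a high row of the tail libraries, above 98.02%, 94.7% and 98.2% of all 7080 rows in tail replicates 1, 2 and 4. In pectoral replicates 1, 2 and 3 it was above 47.8%, 93.0% and 61.6% of rows. Such places, here and for the rows below, depend on how many rows of a library are listed at 0. They cannot be compared between libraries. The log2 fold change of TPM + 1, pectoral minus tail, was -2.88 (95% interval -4.81 to -0.95), with a limma adjusted p of 0.487 over all rows tested. The intervals given here are for 1 row alone and are not adjusted for the number of rows.

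HOXB4, known for its part in hindbrain patterning in mouse, was at or below 1.57 TPM in all 6 libraries. It stood at 0.229, 0.323 and 1.41 TPM across the pectoral libraries and at 1.11, 0.248 and 1.57 TPM across the tail libraries. The groups overlapped, and the log2 fold change was -0.26 (95% interval -1.51 to 0.99, limma adjusted p = 0.955). The sign of this fold change turned with pectoral replicate 1 and tail replicate 4 both left out, where it was 0.14. The contig of HOXB4 belongs to a Trinity gene (a group of contigs that the assembler treats as forms of 1 gene) of 4 rows, which also holds the rows described as homeobox A3a and homeobox D4a and 1 row without a description. Each of the other 5 HoxB and Meis rows was alone in its Trinity gene. Summed over its Trinity gene, HOXB4 reached 14.9 TPM in pectoral replicate 1, of which the undescribed row gave 9.64 TPM. The fold change was then 0.96, and the HOXB6 and HOXB7 share of pectoral replicate 1 was 36.7% in place of 72.4%. The groups did not overlap in that share with this sum either. It was 36.7%, 32.5% and 75.9% in pectoral and 5.41%, 6.68% and 0.261% in tail libraries. With this sum HOXB4 was the highest of the HoxB genes in pectoral replicate 1, and the weighted paralog number there was 4.86 in place of 5.69.

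HOXB5, of the middle of the cluster, stood at 2.42, 5.25 and 1.97 TPM across pectoral replicates 1, 2 and 3 and at 30.8, 0.617 and 1.63 TPM across tail replicates 1, 2 and 4. Tail replicate 1 was higher than all pectoral libraries, and the other 2 tail libraries were lower than all of them. The log2 fold change was -0.36 (95% interval -2.58 to 1.86, limma adjusted p = 0.975). Its sign rested on tail replicate 1, without which it was 0.95.

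HOXB6, whose paralog Hoxc6 marks motor neurons of forelimb level in mouse and chick, stood at 8.18, 3.92 and 9.72 TPM across pectoral replicates 1, 2 and 3. In the tail group, replicates 1, 2 and 4 were at 4.38, 0.950 and 0.107 TPM. The groups overlapped, because tail replicate 1 was above pectoral replicate 2, and the ratio of the mean TPM was 4.01 in favour of pectoral. HOXB6 was above 95.2%, 81.4% and 91.4% of all rows in pectoral replicates 1, 2 and 3 and above 68.6%, 55.1% and 58.1% of rows in tail replicates 1, 2 and 4. The place in tail replicate 4, at 0.107 TPM, reflects the 3552 rows listed at 0 there. The log2 fold change was 1.79 (95% interval -0.28 to 3.86, limma adjusted p = 0.805).

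HOXB7, the highest-numbered HoxB row, stood at 2.75, 5.56 and 5.05 TPM across pectoral replicates 1, 2 and 3. It stood at 0.109 TPM in tail replicate 2 and was listed at 0 in tail replicates 1 and 4. HOXB7 made up 18.2%, 21.8% and 26.4% of the HoxB sum in pectoral replicates 1, 2 and 3 and 0.701% in tail replicate 2. Its share thus differed less between the pectoral libraries than that of HOXB3 or HOXB6. The log2 fold change was 2.36 (95% interval 0.58 to 4.13, limma adjusted p = 0.542). In the order HOXB3, HOXB4, HOXB5, HOXB6 and HOXB7 the fold changes were -2.88, -0.26, -0.36, 1.79 and 2.36. They followed the paralog number apart from HOXB4 and HOXB5. HOXB7 reached 1 TPM in the pectoral libraries alone, so its positive sign was fixed by the filter. The signs of HOXB4 and HOXB5 turned in some alternatives, and the order gives no support by itself. The intervals of all neighbouring rows in this order overlap, and no difference between rows was tested.

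MEIS1 stood at 10.5, 4.33 and 24.98 TPM across pectoral replicates 1, 2 and 3. It stood at 0.417 and 0.633 TPM in tail replicates 1 and 2 and was listed at 0 in tail replicate 4. All pectoral libraries were thus higher than all tail libraries. MEIS1 was above 96.7%, 82.8% and 97.8% of all rows in pectoral replicates 1, 2 and 3 and above 28.9% and 48.5% of rows in tail replicates 1 and 2. Its log2 fold change of 3.14 (95% interval 1.07 to 5.21, limma adjusted p = 0.487) was higher than that of 99.7% of the 3752 rows tested, while that of HOXB3 was higher than 0.746% of them. MEIS1 reached 1 TPM in the pectoral libraries alone and passed the filter through them. Its positive sign was thus fixed by the filter, and its place among the tested rows gives no support by itself.

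**Figure D2:**
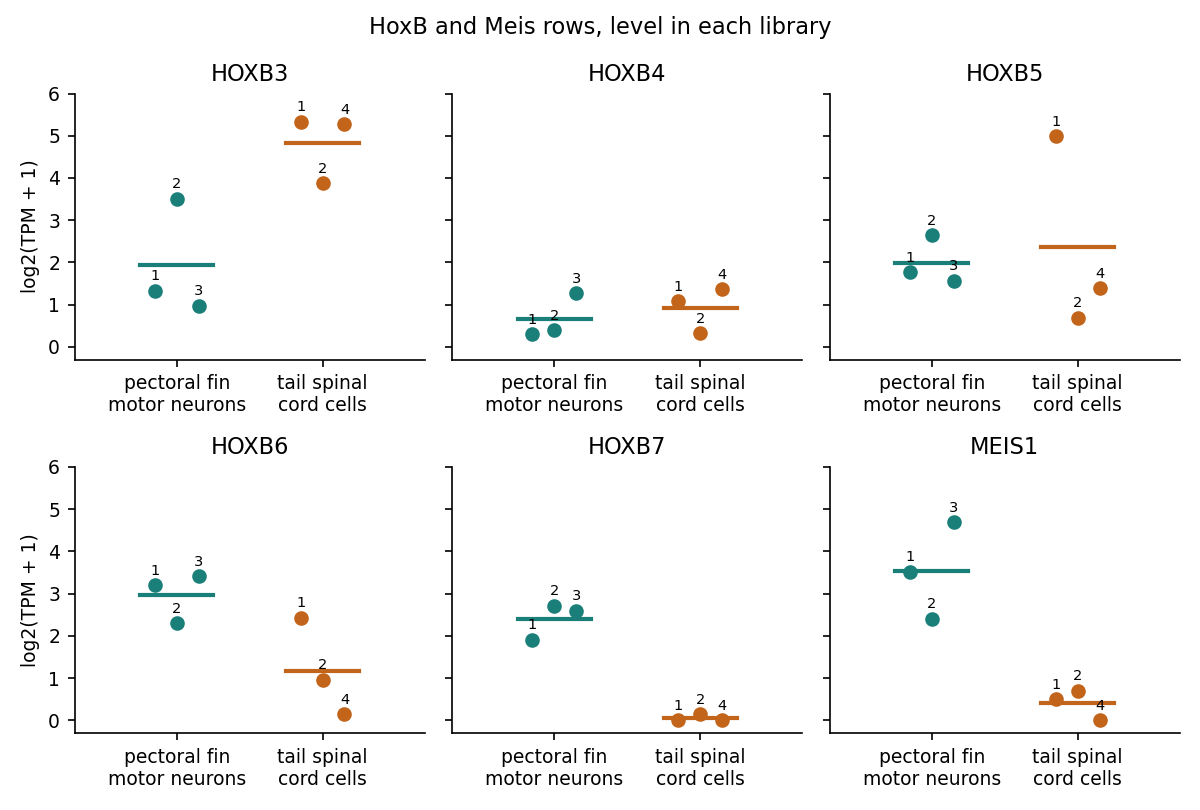
Level of each HoxB and Meis row as log2(TPM + 1), with 1 point for each library, its replicate number above it and a bar at the mean of the 3 libraries. HOXB7 and MEIS1 lie higher in all pectoral libraries than in any tail library, HOXB3 lies lower, and HOXB4, HOXB5 and HOXB6 overlap.

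Set beside the HoxB rows, MEIS1 made up 40.9%, 14.5% and 56.6% of the summed TPM of the 6 rows in pectoral replicates 1, 2 and 3. Its share was 0.549% in tail replicate 1 and 3.91% in tail replicate 2. Within the pectoral group MEIS1 and HOXB6 had the same order of libraries, with replicate 3 highest and replicate 2 lowest. HOXB3 had the opposite order, with replicate 2 highest and replicate 3 lowest, and HOXB7 was highest in replicate 2 and lowest in replicate 1. In the tail group MEIS1 was highest in replicate 2, and HOXB3 and HOXB6 were highest in replicate 1. With 3 libraries a group, these orders are a description only.

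In the comparison of pectoral with tail libraries, 0 of the 6 HoxB and Meis rows passed a limma adjusted p of 0.05, and 0.08% of the 3752 tested rows (3 rows) passed. Over all tested rows 7.04% had an unadjusted p under 0.05, as had 3 of the 6 HoxB and Meis rows (HOXB3, HOXB7 and MEIS1). The same 3 rows had groups that did not overlap, with 2 of them higher in the pectoral group and 1 in the tail group. Over all tested rows 11.8% had such groups, 4.18% with pectoral higher and 7.6% with tail higher. HOXB7 and MEIS1 reached the filter of 1 TPM in 3 libraries through the pectoral libraries alone and so had to differ, and the count of 3 gives no support by itself. An exact two-sided permutation test on TPM gave p = 0.1 for HOXB3, HOXB7 and MEIS1, the smallest p that 3 libraries against 3 can give, and p = 0.2 for HOXB6, 0.6 for HOXB4 and 1 for HOXB5.

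In the authors' deposited table the p-values were 0.0069 for HOXB7, 0.0428 for HOXB3, 0.0658 for HOXB6, 0.103 for MEIS1, 0.477 for HOXB5 and 0.587 for HOXB4. These were not adjusted for the number of rows. The authors' deposited table thus ranks HOXB7 before HOXB3 and MEIS1, while the log2 fit here gave MEIS1 the smallest unadjusted p of the 6, with 31 of the 3752 rows below it, against 33 for HOXB3 and 67 for HOXB7.

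The 6 rows had a median log2 fold change of 0.77, and all tested rows had one of -0.18. The positive signs of HOXB7 and MEIS1 were fixed by the filter, so the median of the 6 rows gives no support by itself. Median-ratio scaling moved the median of all rows by 0.27 and quantile scaling by 0.18. With median-ratio scaling the fold changes were -2.59 for HOXB3, 2.18 for HOXB6, 2.51 for HOXB7 and 3.38 for MEIS1, which is -2.68, 2.09, 2.42 and 3.29 relative to the median of all rows. The directions of these 4 rows held in all alternatives in which they were tested, and those of HOXB4 and HOXB5 each turned in 2 alternatives. The groups of HOXB3, HOXB7 and MEIS1 did not overlap, so another pseudocount or leaving out a library could not turn their signs. For these 3 rows the held direction therefore gives no support by itself. The sizes depended on the pseudocount where a group was near 0. With a pseudocount of 0.1 TPM the fold change was 5.09 for HOXB7, 4.97 for MEIS1 and 2.80 for HOXB6, and with one of 5 TPM it was 0.90, 1.61 and 0.87 for the same rows. Over all alternatives the adjusted p ran from 0.342 to 0.942 for HOXB7, from 0.287 to 0.937 for MEIS1 and from 0.336 to 0.987 for HOXB3.

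**Figure D3:**
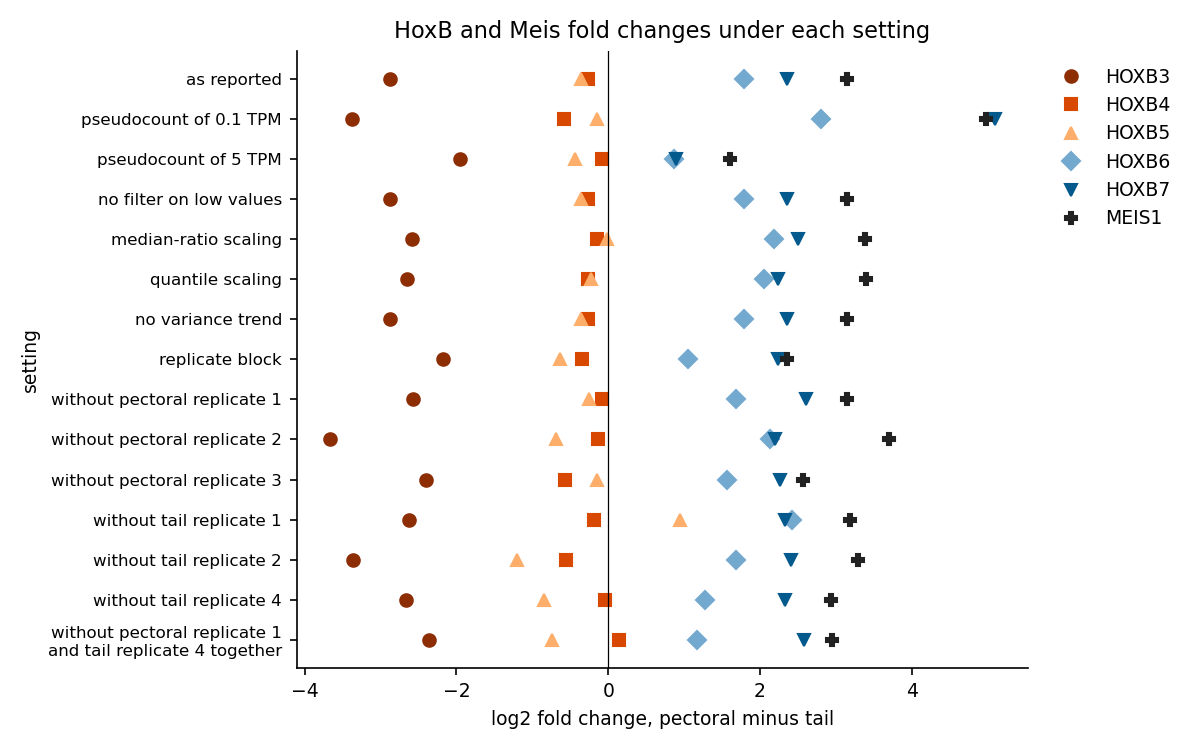
Log2 fold change, pectoral minus tail, of each HoxB and Meis row (horizontal axis) as reported and under other settings of the fit on single rows (vertical axis), with the sums per Trinity gene not drawn. HOXB3 lies left of 0 and HOXB6, HOXB7 and MEIS1 lie right of 0 in every setting drawn, while HOXB5 changes sides without tail replicate 1 and HOXB4 with pectoral replicate 1 and tail replicate 4 both left out.

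The other genes of the pathway came from 3 lists, of other Hox genes, TALE cofactors and regulators of Hox expression. In all, 23 rows reported here carried a name on these lists and 9 were tested. Of these 0 passed in either direction (limma adjusted p of 0.756 to 0.998), where 0.08% of all tested rows passed. Among the 9 rows, 2 had positive and 7 negative fold changes, and their median was -0.41. All tested rows had a median of -0.18. Of the 23 rows 1, that of HOXA2, had groups that did not overlap, with pectoral higher, and it was not a tested row. Over all tested rows 11.8% had such groups, while the tested list rows all had overlapping groups. The 11.8% covers tested rows alone, so the count that includes the untested HOXA2 cannot be set against it.

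Among the other Hox rows with a mean of at least 1 TPM, HOXA2, of hindbrain patterning in mouse, was higher in the pectoral libraries, at 0.641, 5.47 and 2.33 TPM against 0.242, 0.471 and 0 TPM across the tail libraries. HOXD3, of the same paralog group as HOXB3, stood at 0.865, 0.244 and 0.252 TPM across the pectoral and 6.41, 4.60 and 0.731 TPM across the tail libraries. It overlapped only through pectoral replicate 1 and tail replicate 4. HOXA3, the third row of that paralog group, stood at 0.908, 2.29 and 0.0484 TPM across the pectoral and 2.88, 0 and 0.0377 TPM across the tail libraries and had no such split. HOXA3 shares its Trinity gene with HOXB4, as said above, so its value may not mark a separate gene.

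The row described as homeobox C8a (HOXC8) stood at 1.20, 2.25 and 7.32 TPM across pectoral replicates 1, 2 and 3 and at 21.07, 13.9 and 2.03 TPM across tail replicates 1, 2 and 4, with overlapping groups and a log2 fold change of -1.35 (limma adjusted p = 0.867). By its description it is numbered above HOXB7, and its fold change had the other sign. The row described as homeo box C1a (HOXC1) had a log2 fold change of -0.04 (limma adjusted p = 0.998). Whether the skate carries these HoxC genes was not checked here, so the cluster and number of these rows are those of the matched proteins alone. HOXA5 and HOXD4 had means below 1 TPM. Of the 7 other Hox rows only HOXC8 and HOXC1 were tested, as HOXA2, HOXA3, HOXA5, HOXD3 and HOXD4 did not reach 1 TPM in 3 libraries.

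Pbx proteins, the TALE partners that bind DNA with Hox and Meis, had 5 rows. Their sum was 5.07, 3.30 and 10.3 TPM across pectoral replicates 1, 2 and 3 and 4.82, 2.91 and 17.6 TPM across tail replicates 1, 2 and 4, so the groups overlapped. In tail replicate 4 the PBX4 row alone held 17.6 TPM and the other 4 Pbx rows were listed at 0. The 2 rows described as PBX3 stood at 1.56, 1.55 and 1.60 TPM and at 1.27, 0.365 and 5.86 TPM across the pectoral libraries, against 1.96, 1.15 and 0 TPM and 0.327, 0.735 and 0 TPM across the tail libraries. The first of them had a log2 fold change of 0.47 (95% interval -1.21 to 2.15, limma adjusted p = 0.920), and MEIS1 had one of 3.14. The 2 intervals overlap, and the difference between the 2 rows was not tested.

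PKNOX2, a TALE protein related to Meis, stood at 1.60, 0 and 3.25 TPM across the pectoral and 13.03, 0 and 0 TPM across the tail libraries. TGIF1, a TALE repressor, stood at 0.451, 0 and 0.00273 TPM across the pectoral and 2.88, 14.6 and 0 TPM across the tail libraries. Neither row showed the split of MEIS1, and each had its highest value in 1 tail library.

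Of the regulators of Hox expression reported here 4 were tested, and all 4 had negative fold changes. RARG, a retinoic acid receptor, had the lowest, at -2.15 (limma adjusted p = 0.756). It stood at 3.33, 0 and 0.133 TPM across the pectoral libraries, and its tail value rested on replicate 1 at 35.4 TPM and replicate 4 at 9.18 TPM. CYP26A1, which degrades retinoic acid, stood at most at 0.257 TPM across the pectoral libraries and at 3.55, 7.53 and 0.0820 TPM across the tail libraries. The retinoic acid synthesis enzyme ALDH1A2, the Polycomb subunit SUZ12, WDR5 of histone methyltransferase complexes and the zinc finger repressor ZNF703 had overlapping groups too.

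**Figure D4:**
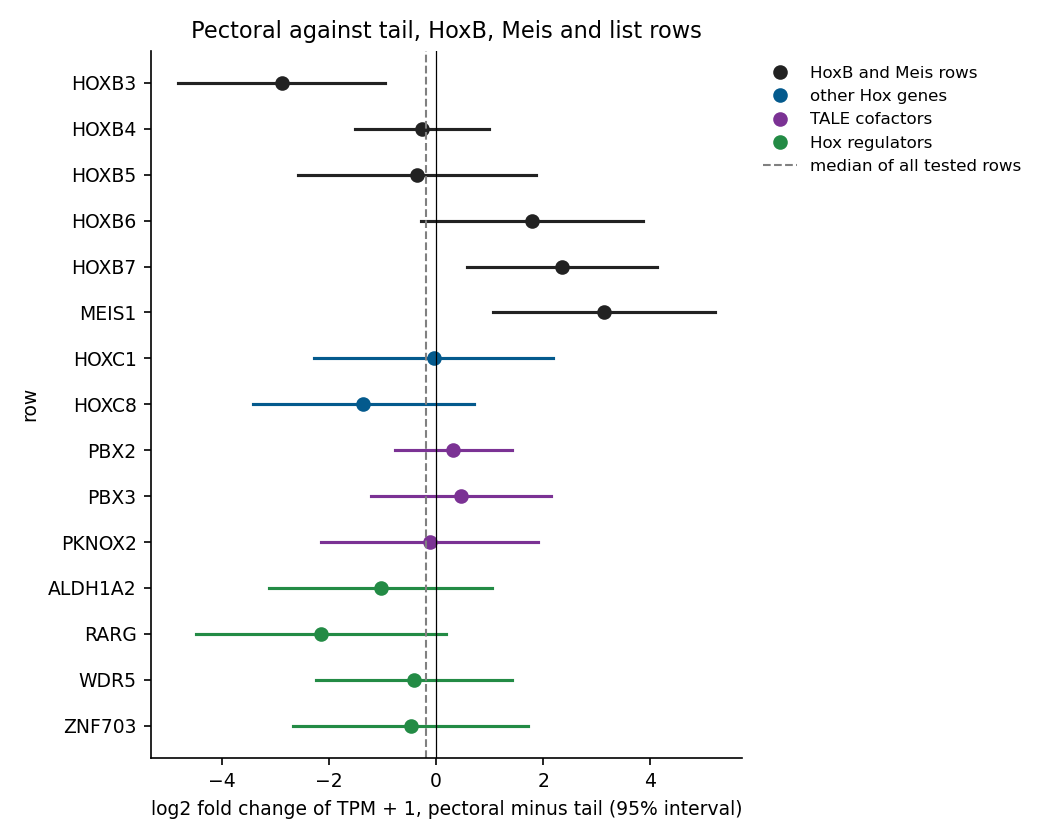
Log2 fold change of TPM + 1, pectoral minus tail (horizontal axis), with its 95% interval, for the 6 HoxB and Meis rows and the 9 tested rows of the other lists. The intervals of HOXB3, HOXB7 and MEIS1 leave out 0, those of the other rows include it, and the dashed line marks the median of all 3752 tested rows at -0.18.

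The described rows most like each HoxB or Meis row were sought among 930 tested rows, by Pearson correlation of log2(TPM + 1) over the 6 libraries. The 6 points share 2 groups and an unknown depth, so the correlations are a description. The rows were picked for high correlation, so a shared order of libraries gives no support by itself. MEIS1, HOXB7 and the rows named for these 2 reached 1 TPM in the pectoral libraries alone, which favours a high correlation. MEIS1 was most like adducin 1 (alpha), a membrane skeleton protein (r = 0.984), and the motor neuron factor ISL1 (r = 0.977). ISL1 stood at 1.63, 1.22 and 4.81 TPM across pectoral replicates 1, 2 and 3 and at 0.249, 0.0563 and 0 TPM across tail replicates 1, 2 and 4, so it had the same order of pectoral libraries as MEIS1. HOXB7 was most like nerve growth factor receptor b (r = 0.994) and potassium channel tetramerization domain containing 2 (r = 0.989). The first of these stood at 5.16, 7.58 and 8.96 TPM across the pectoral libraries and was at 0 in each tail library.

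HOXB6 was most like NFKB activating protein (r = 0.968) and zgc:163080 (r = 0.966). HOXB3 was most like calponin 3, acidic b, an actin-binding protein, and zgc:114188 (r = 0.950 each). The calponin row stood at 2.12, 4.86 and 1.89 TPM across pectoral replicates 1, 2 and 3 and at 6.94, 4.55 and 4.83 TPM across tail replicates 1, 2 and 4, so pectoral replicate 2 was its high pectoral library, as for HOXB3. HOXB5 was most like prolyl endopeptidase (r = 0.988) and ribosomal protein L29 (r = 0.978), both highest in tail replicate 1, at 12.2 and 44.1 TPM. HOXB4 was most like the sodium pump subunit ATPase, Na+/K+ transporting, alpha 3a polypeptide (r = 0.962) and ribosomal protein S24 (r = 0.956).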

How the data were processed

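For the 6 libraries the authors deposited TPM, an abundance measure corrected for transcript length and relative to the library total, and each TPM column belongs to 1 library, per the file headers. Per the submitters' processing notes, the tools were Trimmomatic (0.33), Salmon (0.8.2) and edgeR (3.18.1), with no role given. Libraries were Illumina TruSeq stranded mRNA, per the labels' protocols. Depth is unknown, and the rows summed to 48449 to 74224 TPM per library. Pectoral replicate 1 summed to the round value of 50000 TPM, and whether its column was scaled unlike the others was not tested. The authors' deposited p-value of each row was copied and not used in any test, and their sums and fold changes were not used.

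Pectoral and tail libraries were compared with limma (version 3.58.1, run in R 4.3.3, empirical Bayes with a trend). The fit used log2(TPM + 1) and was two-sided. It covered the 3752 rows that reached 1 TPM in 3 or more of the 6 libraries, with Benjamini-Hochberg adjustment over these rows. Figures and shares were computed in Python 3.11.15. The scripts were tested on simulated data.

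The rows and lists were chosen with earlier results of these data known. The text names all HoxB and Meis rows, list rows with a mean of at least 1 TPM, the 2 described rows most like each HoxB or Meis row, and 4 motor neuron checks. Some genes that this rule takes are not reported here. Alternatives were other pseudocounts, no filter, 2 scalings, no trend, a replicate block, sums of rows and fits without libraries. Fits with the filter repeated were added after seeing the data. None of the table's protein accessions occurs in the skate gene table (0 matches), and no sequences were used here.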

Additional observations from a re-analysis of the deposited data

How the results depend on the processing

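In all alternatives 0 of the HoxB and Meis rows and 0 of the list rows passed. Without any 1 pectoral library and with the filter repeated, HOXB7 and MEIS1 were not tested. HOXB4 was not tested with the filter repeated without pectoral replicate 3, tail replicate 1 or tail replicate 4. Over all tested rows, 2 rows called were higher in the pectoral group and 1 in the tail group. These numbers were 1 and 0 with a pseudocount of 0.1 TPM, median-ratio scaling, no variance trend or the replicate block. They were 1 and 1 with a pseudocount of 5 TPM and 3 and 0 with quantile scaling. With pectoral replicate 1 and tail replicate 4 both left out they were 0 and 0. In fits without 1 library they ran from 1 to 3 in pectoral and from 0 to 2 in tail, and with the filter repeated from 0 to 3 and from 0 to 2. The fold change of HOXB5 was 0.95 without tail replicate 1 and ran from -1.20 to 0.95 in fits without 1 library, and that of HOXB4 was 0.14 with pectoral replicate 1 and tail replicate 4 left out and 0.96 with rows summed per Trinity gene, and the causes were not tested. Rows summed per described name left the 6 rows as they were, since no name occurred more than once among them.

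The replicate numbers 1 and 2 occur in both groups, but no label says that they mark a shared embryo or day. Deviations from the group means correlated at -0.03 for the libraries numbered 1 and at -0.003 for those numbered 2. With the replicate block the fold changes were -2.18 for HOXB3, 1.05 for HOXB6, 2.24 for HOXB7 and 2.36 for MEIS1. Pectoral replicate 3 and tail replicate 4 have no library of the same number in the other group. These fold changes therefore rest on the libraries numbered 1 and 2 alone. The difference in HOXB3 share, pectoral minus tail, was -58.5 percentage points and ran from -71.1 to -51.1 without 1 library. The unknown depth limits what can be read from rows near 0.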
